A study of Mus musculus with 6 samples.

Results

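Pseudogenes with counts were examined in RNA from extracellular vesicles (EVs) released by WEHI-231, a B lymphoma line of the mouse. A gene was included when the GENCODE M21 annotation of the mouse genome GRCm38 gave it a biotype containing the word pseudogene and its counts summed to at least 10 over the 6 samples. Of the 47729 genes in the count files, 9647 were annotated pseudogenes, 1028 of these had at least 1 count, and 131 passed the minimum. Members were thus selected on their counts summed over both conditions, and the size of these sums is a description and not a finding. At the edge of the rule, 8 pseudogenes had a sum of exactly 10, such as Gm10481, Gm14633 and Gm37108. A further 15 had a sum of 9, such as Gm10040, Gm11400 and Gm11942, and were left out.

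Cells received either an isotype control antibody or an anti-CD24 antibody at 10 µg/mL, each mixed beforehand with a secondary antibody at 5 µg/mL, for 1 h. EV RNA was sequenced on an IonTorrent PGM in 3 biological replicates per condition, with neither rRNA depletion nor fragmentation. WEHI-231 is a single cultured line, and no genetic change or age applies to either group. Every isotype library carried barcode 1 and every anti-CD24 library barcode 2, so barcode and condition cannot be told apart.

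A pseudogene is a copy of a gene that has lost, or is presumed to have lost, the ability to make the gene's usual product. Processed pseudogenes arise when an mRNA is reverse transcribed and inserted back into the genome, and strongly expressed housekeeping genes such as those for ribosomal proteins have left many such copies. Stretches of mitochondrial DNA have also been inserted into the nuclear chromosomes, where they are known as numts. A short read from a parent transcript can match such a copy as well as it matches the parent, so a count on a pseudogene need not come from transcription of the pseudogene.

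The 131 members lay on 20 chromosomes. By symbol and location, 13 were mitochondrial-like, 31 carried a ribosomal protein name of the form Rpl or Rps with the ending -ps, and 87 were other pseudogenes. Processed pseudogenes made up 111 of the members, unprocessed pseudogenes 12 and transcribed processed pseudogenes 8. Of the 12 unprocessed pseudogenes, 10 were mitochondrial-like. Each member transcript was compared with the protein-coding and mitochondrial transcripts of the same annotation, and the best match was taken as its closest gene. By this measure, 48 of the 87 other pseudogenes were also closest to a ribosomal protein gene, which gave 79 members of ribosomal protein origin and 39 of other nuclear origin. The median identity to the closest gene was 99.5%. At least 99% identity was found for 87 of 131 members, and 23 were identical over the aligned part.

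The following stretches, read from the GENCODE M21 transcripts, show how little distinguishes abundant members from their closest genes. Each is the window of 60 bases with the most differences, or the first 60 bases where the pair does not differ. Capitals mark bases that differ within a pair, and a pair without capitals is identical. The first 3 pairs are from a block on chromosome 1 (Gm28661 at chr1:24615506-24615565, Gm28438 at chr1:24613060-24613119 and Gm29216 at chr1:24616129-24616188, all on the minus strand of GRCm38).
Gm28661: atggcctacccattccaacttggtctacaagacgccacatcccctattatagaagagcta
mt-Co2: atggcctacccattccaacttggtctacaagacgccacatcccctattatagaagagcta
Gm28438: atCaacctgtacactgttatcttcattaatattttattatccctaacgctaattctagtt
mt-Nd3: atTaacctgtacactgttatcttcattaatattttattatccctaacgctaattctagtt
Gm29216: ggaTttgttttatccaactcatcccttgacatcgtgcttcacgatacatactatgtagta
mt-Co1: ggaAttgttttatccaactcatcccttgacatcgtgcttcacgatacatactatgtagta

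The next pairs are from a more diverged block on chromosome 2 (Gm13340 at chr2:22588911-22588970 and Gm13341 at chr2:22587463-22587522, minus strand). They are shown because these windows hold several bases that tell the copy from the mitochondrial gene.
Gm13340: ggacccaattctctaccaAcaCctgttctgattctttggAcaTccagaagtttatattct
mt-Co1: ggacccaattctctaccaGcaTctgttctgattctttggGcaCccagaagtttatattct
Gm13341: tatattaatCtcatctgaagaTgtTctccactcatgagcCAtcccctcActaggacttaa
mt-Co2: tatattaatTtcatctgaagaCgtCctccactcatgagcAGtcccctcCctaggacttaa

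The last pairs are copies of nuclear genes (Rps16-ps2 at chr5:129128458-129128517, minus strand; Rps19-ps6 at chr12:110898460-110898519, plus strand; Gm8730 at chr8:102865352-102865411, minus strand; Gm2606 at chr15:12575441-12575500, plus strand). Gm2606 was chosen after its values were seen, as the Gapdh copy with the most counts.
Rps16-ps2: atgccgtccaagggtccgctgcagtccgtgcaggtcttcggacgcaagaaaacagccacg
Rps16: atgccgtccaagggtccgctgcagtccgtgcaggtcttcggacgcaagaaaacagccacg
Rps19-ps6: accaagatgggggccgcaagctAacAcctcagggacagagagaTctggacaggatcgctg
Rps19: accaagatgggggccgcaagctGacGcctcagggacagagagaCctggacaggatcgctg
Gm8730: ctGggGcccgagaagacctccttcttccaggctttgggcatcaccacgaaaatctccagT
Rplp0: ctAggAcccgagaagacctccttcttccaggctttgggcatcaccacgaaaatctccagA
Gm2606: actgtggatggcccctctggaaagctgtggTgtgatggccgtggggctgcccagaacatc
Gapdh: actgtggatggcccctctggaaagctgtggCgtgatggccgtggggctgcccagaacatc

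The depth of the libraries limits how finely the members can be described. Each sample had between 166129 and 794185 counts on genes, of which 15626 to 112042 lay outside the rRNA and ribozyme genes. The members held 539, 465 and 1664 counts in isotype replicates 1 to 3 and 834, 2148 and 1593 counts in anti-CD24 replicates 1 to 3. Between 60 and 127 of the 131 members had a count in a given sample, and 26 had one in all 6 samples. A share shown by 3 counts, taken as the floor, was 0.00268% to 0.0192% of the counts outside rRNA and ribozyme genes. Of 10 B cell markers, 8 had counts, with 0 to 20 summed counts in the isotype and 7 to 12 in the anti-CD24 samples, and Ptprc was among those at 0. None of 5 T cell markers had a count, and 3 of 4 myeloid markers had 0 in the isotype and 0 to 4 summed counts in the anti-CD24 samples. Of 5 erythroid markers, 4 had counts, all in anti-CD24 replicate 1, where Hbb-bs, Hbb-bt, Hba-a1 and Hba-a2 summed to 99.

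The mitochondrial-like pseudogenes held 4929 of the 7243 member counts pooled over the samples (68.1%), against 8.85% for the ribosomal protein pseudogenes and 23.1% for the others. Within samples their part of the member counts ran from 34.9% to 91.5%. It was the largest in 5 of the 6 samples, while in isotype replicate 3 the other pseudogenes held 52.7% and the mitochondrial-like ones 34.9%. As a share of the counts outside rRNA and ribozyme genes, they took 1.35% in isotype replicate 1 (95% Wilson interval 1.22% to 1.5%), 2.15% in replicate 2 (1.93% to 2.39%) and 0.841% in replicate 3 (0.776% to 0.912%). In the anti-CD24 samples the shares were 0.617% (0.560% to 0.681%), 1.59% (1.52% to 1.66%) and 1.79% (1.70% to 1.88%) in the same order. The intervals here and below treat each count as a separate read, and are too narrow where a read was counted on several members. Isotype replicate 2 was the highest of the 6 samples and anti-CD24 replicate 1 the lowest, and the conditions overlapped. In RNA pooled over many EVs, a smaller amount of a transcript per EV and fewer EVs that carry it cannot be told apart.

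**Figure D1:**
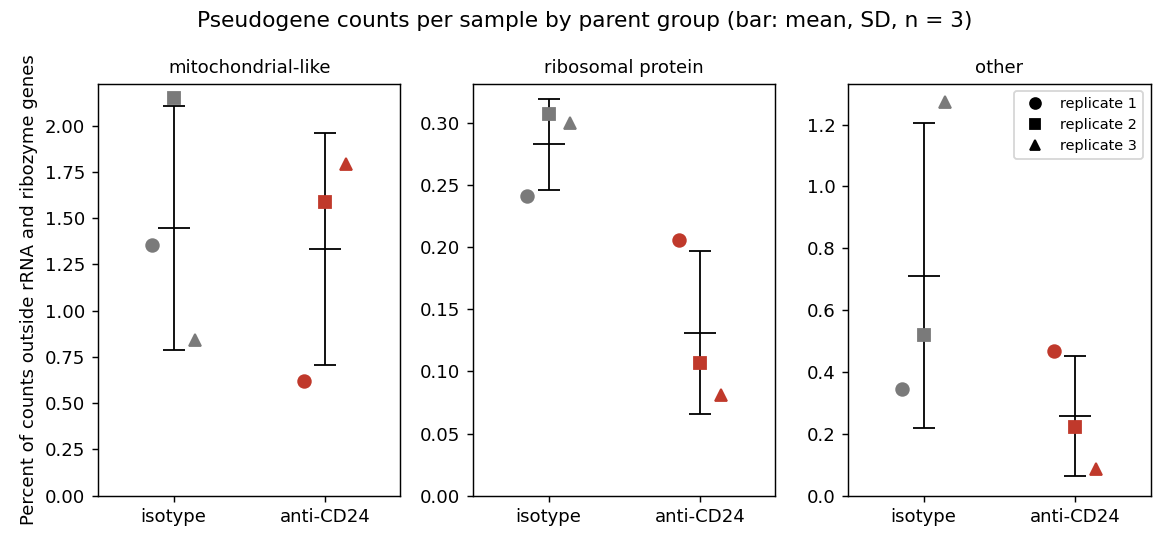
Share of the counts outside rRNA and ribozyme genes (y axis, percent) held by the 13 mitochondrial-like, 31 ribosomal protein and 87 other pseudogenes in each isotype (grey) and anti-CD24 (red) sample. Symbols mark the replicate number, and the black bar and whiskers give the mean and SD of 3 samples. The 3 ribosomal protein values after anti-CD24 (0.0811% to 0.206%) lie below those after isotype (0.241% to 0.307%), and the samples overlap in the other panels.

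A single block on chromosome 1 (chr1:24611535-24616197, minus strand) carried 7 of the 13 mitochondrial-like members and 4608 of their counts, which was 93.5% of the mitochondrial-like counts and 63.6% of all member counts. Its genes follow each other in the order of the mitochondrial genome from mt-Co1 to mt-Nd4 and differ from it at 2 aligned bases in all. Both differences are among the stretches shown above. With positions counted from 1 at the first base of the mitochondrial transcript, they are T3C in Gm28438 against mt-Nd3 and A1066T in Gm29216 against mt-Co1. The isotype samples had 354, 329 and 537 counts in the block and the anti-CD24 samples 375, 1628 and 1385. As a share of the counts outside rRNA and ribozyme genes, which allows for depth, the block took 1.27% (95% Wilson interval 1.15% to 1.41%), 2.11% (1.89% to 2.34%) and 0.779% (0.716% to 0.847%) after isotype and 0.580% (0.525% to 0.642%), 1.45% (1.38% to 1.52%) and 1.70% (1.61% to 1.79%) after anti-CD24. Anti-CD24 replicates 2 and 3 had the most counts, but isotype replicate 2 had the highest share and anti-CD24 replicate 1 the lowest, and the conditions overlapped.

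Gm10925, a copy of the ATP synthase subunit gene mt-Atp6, was the member with the most counts. It had 113, 96 and 175 counts in the isotype samples and 105, 440 and 426 in the anti-CD24 samples. Its total of 1355 compared with 701 for mt-Atp6 itself, although the 678 bases of Gm10925 are identical to the gene. In the mitochondrial genome the start of mt-Atp6 overlaps mt-Atp8 by 43 bases, and reads that touch both genes are assigned to neither in the counting mode used. In each sample Gm10925 exceeded mt-Atp6, by a ratio between 1.61 and 3.5. The part of the overlap in this ratio was not tested.

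Gm28661, a copy of the cytochrome c oxidase subunit gene mt-Co2, is identical to the gene over its 681 bases. It had 73, 73 and 122 counts after isotype and 70, 399 and 344 after anti-CD24. In 5 of the 6 samples mt-Co2 had exactly the same count, and in anti-CD24 replicate 3 it had 343. Gm10222, an identical copy of the complex I subunit gene mt-Nd4l, had 408 counts against 404 for mt-Nd4l, and Gm28437, an identical copy of mt-Co3, had 558 against 537. For Gm10222 the counts were 30, 58 and 62 after isotype and 39, 114 and 105 after anti-CD24. For Gm28437 they were 38, 33 and 64 after isotype and 60, 229 and 134 after anti-CD24. For these pairs, the count files alone do not tell nuclear from mitochondrial origin. The authors' aligner was set to report all best hits, and the files list 0 reads on the line for non-unique alignment, so that a read which matches a pair equally well could have been counted on both.

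Gm28438 departed from this near equality. This copy of the complex I subunit gene mt-Nd3 had 35, 19 and 19 counts after isotype and 32, 97 and 102 after anti-CD24, while mt-Nd3 had 0, 3 and 3 and then 2, 9 and 13. The pseudogene thus had the higher count in each of the 6 samples, with sums of 304 and 30 and 881 against 86.2 counts per kb. The pair differs at the single base T3C, the last base of the first codon. Which of the 2 bases the reads carried was not tested, since the files hold no reads.

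Gm29216 and Gm28439 cover only part of their closest genes. Gm29216 matches the last part of mt-Co1 from position 1063 to 1545 and had 52, 41 and 79 counts after isotype and 56, 262 and 203 after anti-CD24. Its sum of 693 was below the 2039 of mt-Co1, but per length the pair was close, with 1409 counts per kb for Gm29216 and 1320 for mt-Co1. Gm28439 matches mt-Nd4 up to position 876. It had 13, 9 and 16 counts after isotype and 13, 87 and 71 after anti-CD24, and reached 239 counts per kb against 316 for mt-Nd4.

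**Figure D2:**
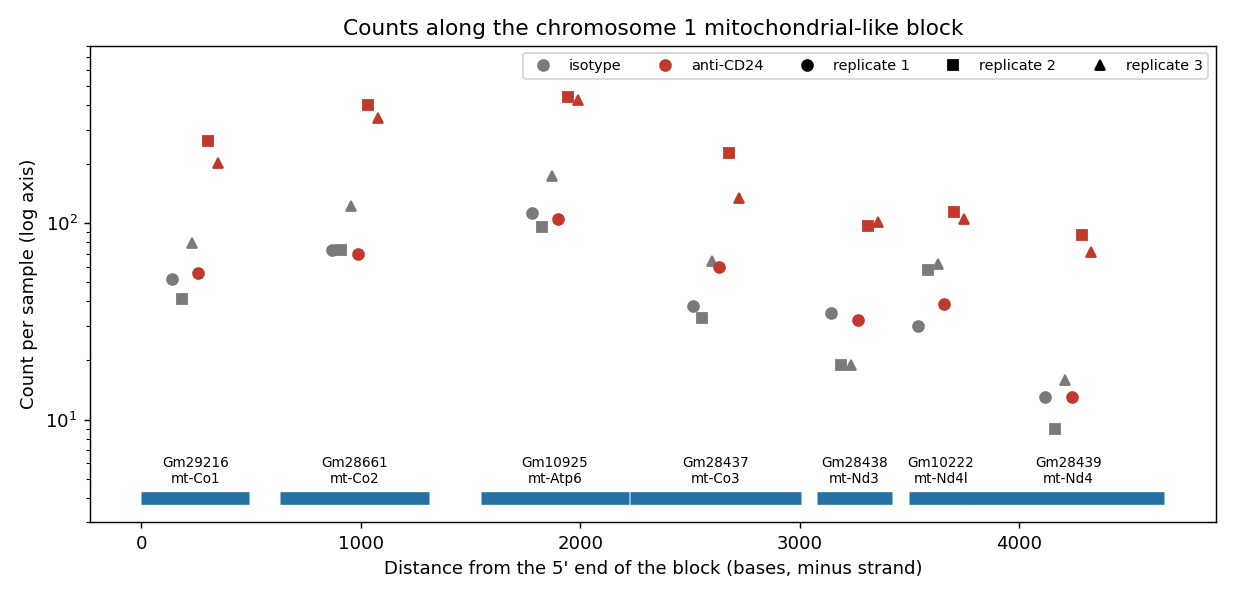
Counts per sample (y axis, log) of the 7 pseudogenes in the chromosome 1 block against the distance in bases from the 5' end of the block (x axis, to scale). Blue bars are the annotated pseudogenes, each labelled with its closest mitochondrial gene, grey and red points are isotype and anti-CD24 samples, and symbols give the replicate number. In each of the 7 genes the highest count belongs to anti-CD24 replicate 2 or 3, from 87 in Gm28439 to 440 in Gm10925, but the libraries differ in depth. As a share of counts outside rRNA and ribozyme genes 5 of the 7 genes are highest in isotype replicate 2. On the TMM-scaled CPM of the gene-level test below, 6 of the 7 are highest in anti-CD24 replicate 3.

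The second block, on chromosome 2 (chr2:22587291-22590533, minus strand), held 3 members and 273 counts. It again follows the order of the mitochondrial genome but carries 70 mismatches, or 2.57 per 100 bases, against 0.0482 per 100 bases in the chromosome 1 block. Gm13340, a full-length copy of mt-Co1 at 97.6% identity, had 12, 2 and 20 counts after isotype and 12, 77 and 29 after anti-CD24. Gm13339, a copy of the complex I subunit gene mt-Nd2 at 96.7% identity, had 6, 5 and 0 and then 4, 45 and 33 counts. Gm13341, a copy of mt-Co2 at 95.9% identity, had 1, 0 and 1 counts after isotype and 7, 10 and 9 after anti-CD24, so that its conditions did not overlap in counts.

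Relative to their closest genes, the members of the chromosome 2 block stood far below those of chromosome 1. The ratio of summed counts was 0.117 for Gm13339, 0.0745 for Gm13340 and 0.0259 for Gm13341, against 0.340 to 10.1 in the chromosome 1 block. The remaining mitochondrial-like members were single copies elsewhere. Gm4076 on chromosome 13 (mt-Nd5, 95.2% identity), Gm11410 (mt-Cytb, 92.9%) and Gm11834 (mt-Nd1, 76.6%), both on chromosome 4, had 20, 11 and 17 counts and ratios of 0.0282, 0.0167 and 0.0268. These 3 are named after their values were seen. Across the 13 members, the 7 with at most 1 mismatch had ratios of 0.340 and above, and the 6 with 16 or more mismatches had ratios of 0.117 and below. This is a description over 13 genes that share libraries and, within a block, position. The ratios are not corrected for length, and some members cover only part of their gene. Per kb, Gm29216 had 1409 counts against 1320 for mt-Co1, and Gm13339 had 182 against 765 for mt-Nd2.

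**Figure D3:**
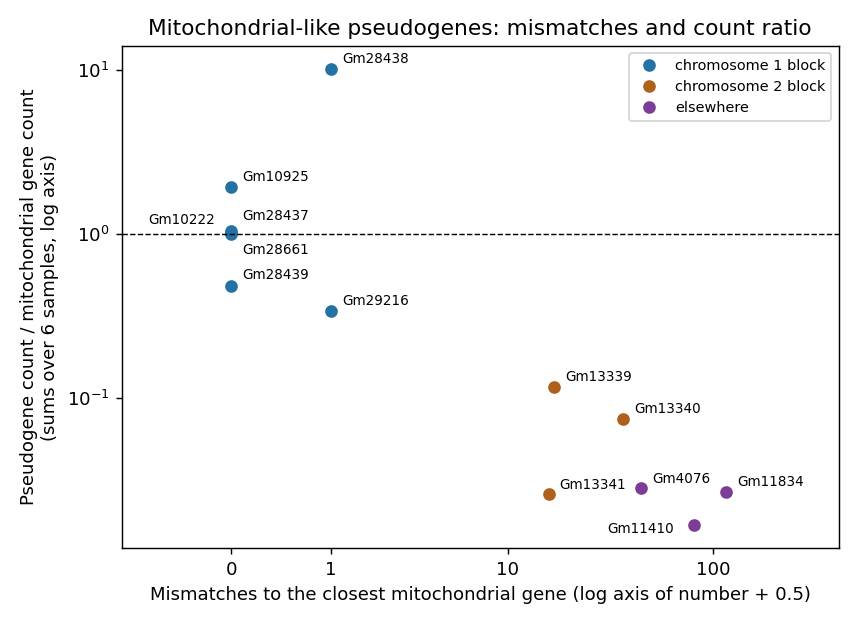
Summed count of each mitochondrial-like pseudogene divided by that of its closest mitochondrial gene (y axis, log) against the number of mismatches between them (x axis, log of the number + 0.5). Points are the 13 members, coloured by location, and the dashed line marks equal counts. The 7 members with 0 or 1 mismatch lie at ratios of 0.340 to 10.1 and the other 6 at 0.117 or below. Ratios are not corrected for length.

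The mitochondrial-like members followed the mitochondrial genes from sample to sample. The ratio of their summed count to that of the 13 mitochondrial protein-coding genes was 0.526, 0.415 and 0.523 in the isotype samples and 0.512, 0.516 and 0.470 in the anti-CD24 samples. These ratios overlapped between the conditions, and none of the 6 samples stood apart, although the counts themselves ranged from 336 to 1780. A read that matches both a member and a mitochondrial gene could enter both sums. The ratios therefore do not compare separate measurements.

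The ribosomal protein pseudogenes held 67, 48 and 207 counts in the isotype samples and 133, 120 and 66 in the anti-CD24 samples. As a share of counts outside rRNA and ribozyme genes this was 0.241% (95% Wilson interval 0.190% to 0.306%), 0.307% (0.232% to 0.407%) and 0.300% (0.262% to 0.344%) after isotype. After anti-CD24 it was 0.206% (0.174% to 0.244%), 0.107% (0.0896% to 0.128%) and 0.0811% (0.0637% to 0.103%). The conditions did not overlap, but the intervals of the first replicates did. The means were 0.283% ± 0.0363 (SD, n = 3) and 0.131% ± 0.0658 (SD, n = 3), a difference of -0.152 percentage points that is larger than either SD. As a share of all counts on genes the conditions overlapped, with 0.0208% in isotype replicate 1 (95% Wilson interval 0.0164% to 0.0264%) and 0.0218% in anti-CD24 replicate 1 (0.0184% to 0.0258%).

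Grouping by sequence instead of symbol gave 79 ribosomal protein members, and their conditions overlapped. After isotype their share was 0.682% ± 0.167 and after anti-CD24 0.298% ± 0.191 (SD, n = 3 each), with anti-CD24 replicate 1 at 0.514% (95% Wilson interval 0.461% to 0.572%) and isotype replicate 1 at 0.5% (0.424% to 0.590%). The 79 cytosolic ribosomal protein genes themselves held fewer counts than their copies, 562 in all against 1535. A read that matches several copies could be counted on each, so these sums are not numbers of separate reads. The genes' own shares of 0.238% ± 0.0587 and 0.114% ± 0.0887 (SD, n = 3 each, isotype first) came from conditions that also overlapped.

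Rps19-ps6, a copy of the small ribosomal subunit gene Rps19 at chr12:110898114-110898551, had the most counts of the nuclear members. It had 5, 7 and 25 counts after isotype and 12, 15 and 10 after anti-CD24, 74 in all, against 15 for Rps19. The identity of the pair is 98.9%. Rps16-ps2, identical to the coding sequence of Rps16, had 1, 3 and 11 and then 19, 6 and 1 counts, 41 in all against 8 for the gene. Both conditions spanned a wide range for these genes and overlapped.

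Among the further ribosomal protein names, Rpl3-ps1 had 4, 3 and 12 counts after isotype and 10, 6 and 3 after anti-CD24. Rps6-ps4, a copy of the gene for a small-subunit protein phosphorylated downstream of growth signals, had 5, 3 and 11 and then 6, 1 and 3. Rpl10a-ps1 had 3, 0 and 11 and then 3, 9 and 0 counts. In each of these, isotype replicate 3 held the highest count. It was also the deepest isotype library, with 68947 counts outside rRNA and ribozyme genes against 27792 and 15626 in replicates 1 and 2. Several copies of one parent could not be separated. Rps19-ps1 and Rps19-ps2 had equal counts in every sample, as did Rpl10-ps1 and Rpl10-ps6. Altogether 31 members had the same counts as some other gene in every sample, 25 of them the same as another member, and the 131 members showed 117 distinct patterns of counts.

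The other pseudogenes held 96, 81 and 877 counts in the isotype samples and 302, 248 and 69 in the anti-CD24 samples. The shares were 0.345% (95% Wilson interval 0.283% to 0.422%), 0.518% (0.417% to 0.644%) and 1.27% (1.19% to 1.36%) after isotype and 0.467% (0.418% to 0.523%), 0.221% (0.195% to 0.251%) and 0.0847% (0.0670% to 0.107%) after anti-CD24. Isotype replicate 3 was the highest and anti-CD24 replicate 3 the lowest. The means of 0.712% ± 0.493 (SD, n = 3) and 0.258% ± 0.194 (SD, n = 3) differed by less than the SD of the isotype samples.

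Gm13456, a copy of the elongation factor gene Eef1a1 at 96.8% identity, led this group with 4, 2 and 35 counts after isotype and 15, 8 and 2 after anti-CD24. Eef1a1 had 73 counts against its 66, which came to 29.3 and 48.4 counts per kb of annotated exon. Gm8730, a copy of the ribosomal stalk gene Rplp0 at 98.7% identity, had 8, 5 and 34 and then 7, 6 and 0 counts. Rps3a2, a copy of Rps3a1, had 2, 1 and 22 and then 9, 2 and 0. Tpt1-ps3, identical to its stretch of the translationally controlled tumour protein gene Tpt1, had 3, 2 and 10 and then 14, 2 and 2 counts. Isotype replicate 3 was the highest sample in each of these but Tpt1-ps3, where anti-CD24 replicate 1 was.

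The largest family came from Gapdh, the glycolytic enzyme gene commonly used as a housekeeping reference, and was examined after its values were seen. It comprised 22 members at 98.5% to 100% identity, with 10 to 28 counts each and 443 in all, while Gapdh itself had 6 counts. Their counts summed to 0, 0 and 362 in the isotype samples and 47, 34 and 0 in the anti-CD24 samples, and those of Gapdh were 0, 0 and 4 and then 1, 1 and 0. The samples with counts of the copies were therefore the samples with counts of Gapdh. Gm2606, which carries C675T against the Gapdh transcript (counted from 1 at its first base), had 0, 0 and 22 and then 3, 3 and 0 counts. The 22 copies showed 17 patterns of counts, and Gapdh-ps15, Gm2574, Gm3272 and Gm5138 were equal in every sample. These members share sequence, a read may have been counted on several of them, and they cannot be taken as 22 separate measurements.

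Smaller families behaved differently from one another. The 3 copies of Tuba1b, an alpha-tubulin gene, summed to 4, 2 and 30 counts after isotype and 0, 26 and 2 after anti-CD24, with 2, 1 and 22 and then 0, 13 and 3 on Tuba1b. The 3 copies of Rpl21, Gm10163, Gm10240 and Gm13370, had equal counts of 3, 1 and 8 and then 2, 0 and 0 in the absence of any count on Rpl21. These families were likewise chosen after their values were seen.

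Over the 118 members of nuclear origin, 97 had more counts than the closest gene, 2 had equally many and 19 had fewer. For 8 members the closest gene was at 0. The members' counts summed to 2314 and those of their 57 closest genes to 682. Per kb of annotated exon, 110 of 118 members were above the closest gene, with medians of 24.9 and 2.41 counts per kb. Multi-exon genes have untranslated and alternative exons that a short copy lacks, and a read can be counted on several copies, so the per-length figures are not levels of expression. The 8 members below their closest gene were the 3 Tuba1b copies, 2 copies each of Eef1a1 and Eef2, and the histone pseudogene Hist1h2aj. The ratio of the members' counts to those of their closest genes was 2.76, 3.07 and 4.11 in the isotype samples and 2.67, 3.02 and 4.22 in the anti-CD24 samples. These ranges overlapped, and samples with the same replicate number lay close together.

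**Figure D4:**
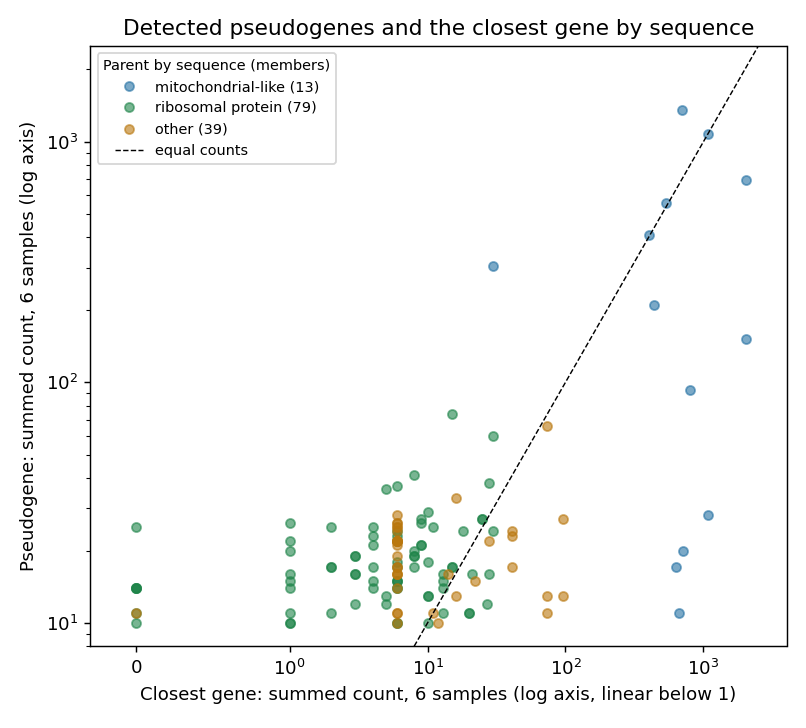
Summed count over 6 samples of each pseudogene (y axis, log) against that of its closest gene by sequence (x axis, log, linear below 1). Points are the 131 members, coloured by parent (13 mitochondrial-like, 79 ribosomal protein, 39 other), and the dashed line marks equal counts. Most nuclear members lie above the line, 97 of 118, while the mitochondrial-like members fall on both sides.

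Nuclear members were spread unevenly over the samples. Of the 118, 61 had their highest share in isotype replicate 3, 24 in isotype replicate 2, 17 in isotype replicate 1, and 11, 2 and 3 in anti-CD24 replicates 1 to 3. All 22 Gapdh copies were among the 61. Without these copies, a setting chosen after seeing the data, the 96 others held 0.820% ± 0.230 of the counts outside rRNA and ribozyme genes after isotype and 0.355% ± 0.223 after anti-CD24 (SD, n = 3 each). Isotype replicate 1 was the lowest of its condition at 0.587% (95% Wilson interval 0.503% to 0.683%) and anti-CD24 replicate 1 the highest of its condition at 0.60% (0.544% to 0.663%), so the conditions overlapped.

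Whether the EV content of these transcripts differed between anti-CD24 and isotype stimulation was asked first of the summed share. All members together held 1.94% (95% Wilson interval 1.78% to 2.11%), 2.98% (2.72% to 3.25%) and 2.41% (2.30% to 2.53%) of the counts outside rRNA and ribozyme genes in the isotype samples. In the anti-CD24 samples they held 1.29% (1.21% to 1.38%), 1.92% (1.84% to 2.00%) and 1.96% (1.86% to 2.05%). The means were 2.44% ± 0.519 (SD, n = 3) and 1.72% ± 0.374 (SD, n = 3), and the conditions overlapped at anti-CD24 replicate 3 and isotype replicate 1. For the mitochondrial-like members the means were 1.45% ± 0.660 and 1.33% ± 0.627 (SD, n = 3 each), a difference far inside the spread. No p is given for these sums, since the members were chosen with the results known.

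Single genes were tested with edgeR's quasi-likelihood test on the 1501 genes with a CPM (count scaled to the library total) of at least 1 in 3 or more samples, of which 119 were members. The other 12 members did not pass this filter. They had counts in 1 or 2 samples, 11 of them had their highest share in isotype replicate 3, and 9 were Gapdh copies. None of the 119 was past an adjusted p of 0.05, against 0.0666% of all genes tested. The smallest adjusted p of a member in edgeR's quasi-likelihood test was 0.54. At an unadjusted p under 0.05 there were 3 members on the lower side after anti-CD24, against 3.73% of all genes tested, and 1 on the higher side, against 4.26%. DESeq2 also called 0 members and had 11 at an unadjusted p under 0.05, which is 9.24% of them against 6.33% of all genes. Leaving out a single library changed these counts. Without anti-CD24 replicate 1, 0 of 90 members and 4.29% of all genes had an adjusted p under 0.05 in edgeR, and 17 members (18.9%) had an unadjusted p under 0.05 against 14.6% of all genes. Without isotype replicate 2, 13 of 116 members (11.2%) had an unadjusted p under 0.05 against 5.19% of all genes.

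The 3 members on the lower side were Gm6745, Gm7331 and Gm8730. Gm7331 had the smallest p, with a log2 fold change of -3.21 (SE 1.41) on 3, 0 and 19 counts after isotype and 0, 3 and 0 after anti-CD24. Gm6745, a copy of Rpl11, had a log2 fold change of -3.51 (SE 1.62) on 1, 0 and 12 counts after isotype and 1, 0 and 0 after anti-CD24. For Gm8730 it was -2.45 (SE 1.13). Isotype replicate 3 held 65 of the 99 counts of these 3 members. Past that p lay Rps2-ps6 at -3.19 (SE 1.63), with 1, 1 and 7 and then 1, 0 and 0 counts. The 1 member on the higher side was Gm13341 of the chromosome 2 block, with a log2 fold change of 2.97 (SE 1.47). These 5 members had an adjusted p of 0.54 in edgeR's quasi-likelihood test.

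On TMM-scaled CPM, 11 members had their 3 anti-CD24 values below the lowest isotype value, which is 9.24% of the 119, against 8.06% of all genes tested. The reverse held for 2 members, Gm13341 and Rps23-ps1, against 7.86% of all genes. The 11 included the 3 equal copies of Rpl21 and both members closest to Rplp0, Gm8730 and Gm9625. They also included 2 near-identical copies of Rpl15, Gm4294 and Gm10020, and 2 copies of Rps2, Rps2-ps6 and Gm6311. Fewer than 11 separate measurements therefore stand behind that number, and the share on the lower side is close to that of all genes.

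The log2 fold changes had a median of -0.77 over the 119 members and of -0.29 over all 1501 genes. They were below 0 for 90 members, or 75.6%, against 55.3% of all genes. The members are not separate measurements, since 25 of the 131 had counts equal to another member's in every sample. The 13 tested Gapdh copies, all highest in isotype replicate 3, were all below 0. Members high in a single library could also pass the count minimum through it alone. The parent groups differed in the direction of their fold changes. The median was 0.91 for the 12 mitochondrial-like members tested, of which 10 were above 0, -0.73 for the 31 ribosomal protein members and -1.04 for the 76 others. The sizes depended on single libraries. The mitochondrial-like median was 0.30 without isotype replicate 3, 0.44 without anti-CD24 replicate 2, 0.37 without anti-CD24 replicate 3 and 1.56 without anti-CD24 replicate 1, and DESeq2 gave 0.24. The median of the others was -0.55 without isotype replicate 3, and DESeq2 gave -1.65 for them and -1.34 for the ribosomal protein members, on a scale where all genes had a median of -0.97. Without anti-CD24 replicate 3 the ribosomal protein median was -0.44. The chromosome 1 block gave 0.70 (SE 0.75) for Gm10925, 0.91 (SE 0.77) for Gm28661, 0.91 (SE 0.79) for Gm29216, 0.89 (SE 0.81) for Gm28437, 0.90 (SE 0.84) for Gm28438, 1.48 (SE 0.92) for Gm28439 and -0.02 (SE 0.81) for Gm10222. None of these was called.

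The closest genes showed a similar division. It is not a separate measurement, since a read could be counted on a member and on its closest gene. The 13 mitochondrial protein-coding genes had a median log2 fold change of 1.10, and the 31 tested ribosomal protein genes a median of -1.02, with 0 called in either list. The direction for the mitochondrial-like members depends on the scale. Their TMM-scaled CPM was on the higher side after anti-CD24, while their mean share of the counts outside rRNA and ribozyme genes was 0.116 percentage points on the lower side. The TMM factor of anti-CD24 replicate 3 was 0.514, against 0.871 to 1.36 in the other samples. On library size without TMM, the mitochondrial-like median log2 fold change was 0.50, against 0.91 with TMM. The part of the anti-CD24 replicate 3 factor alone was not tested. Relative to the median of all genes tested, the mitochondrial-like median was above, and the ribosomal protein and other medians below, in all 12 settings of the gene-level test. These settings reuse the same libraries, and members of a group share sequence, so they are not 12 separate tests. A rescaling of a library also moves the members and all genes together.

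**Figure D5:**
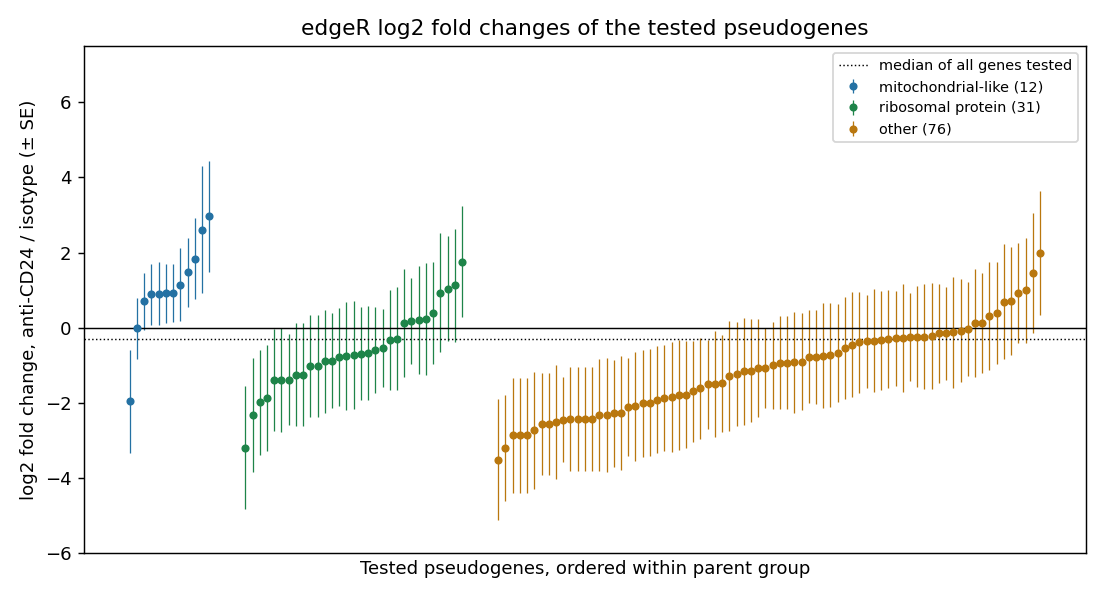
edgeR log2 fold change (y axis, anti-CD24 over isotype, with SE) of the 119 tested pseudogenes, ordered by value within the 12 mitochondrial-like, 31 ribosomal protein and 76 other members (x axis). The solid line is 0 and the dotted line the median of all 1501 genes tested, -0.29. The error bars are wide, with a median SE of 1.38, and no member passed an adjusted p of 0.05.

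Of the other named members, Gm13340 had a log2 fold change of 1.15 (SE 0.97) and Gm13339 of 1.84 (SE 1.07). Among the nuclear copies it was -0.54 (SE 1.04) for Rps19-ps6, -1.07 (SE 1.07) for Gm13456, 0.17 (SE 1.15) for Rps16-ps2 and -0.60 (SE 1.15) for Rpl3-ps1. It was -1.50 (SE 1.19) for Rps3a2, -0.25 (SE 1.18) for Tpt1-ps3, -1.38 (SE 1.21) for Rps6-ps4 and -0.88 (SE 1.27) for Rpl10a-ps1. Adjusted p in edgeR's quasi-likelihood test lay between 0.54 and 0.99 for the 23 members that the naming rule picked. On counts simulated with the dispersion of these data, the same test recovered 16% of genes changed 4-fold and 79% of genes changed 16-fold. The changed genes were drawn above a minimum mean count that most nuclear members, with a median sum of 17, did not reach. The rates are thus not those of such members, and a 4-fold change was mostly not detected even in those more abundant genes.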

How the data were processed

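EV RNA from 3 isotype and 3 anti-CD24 samples was analysed, grouped by the titles in the labels. The authors aligned trimmed reads with tmap, reporting all best hits, and counted them with htseq-count (HTSeq 0.5.4p5 per the labels, union mode) on Ensembl genes of GRCm38. The deposited files hold raw counts per gene, without normalization, and the 5 summary lines were left out.

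Biotypes, positions and transcripts came from GENCODE M21 on the assembled chromosomes, which does not list 505 of the genes in the files. Closest genes were the best BLAST+ 2.17.0 match on the same strand (E-value limit 1e-5). Shares use the counts outside 376 rRNA and ribozyme genes, with 95% Wilson intervals. Like the floor of 3 counts, these cover at most counting error. They treat each count as a separate read, so they are too narrow where a read was counted on several members. Counts per kb use merged exons. The gene-level test was that of edgeR 4.0.16, run in R 4.3.3 (TMM, CPM of at least 1 in 3 samples, quasi-likelihood test, Benjamini-Hochberg adjustment over 1501 genes, threshold 0.05). Its p-values set the difference between the conditions against the spread between these samples. The test was tried on simulated counts. DESeq2 1.42.0, a replicate block, other scalings, no filter, other groupings and left-out samples were the alternatives.

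Named members were the 12 with the most counts, the 5 highest of each parent group and the 5 with the smallest p; a few closest genes and a member are not reported here. Members, lists and tests were chosen with earlier results of these data known.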

Additional observations from a re-analysis of the deposited data

How the results depend on the processing

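Under all 11 alternatives to the gene-level test, left-out samples included, 0 members were called, while 0 to 48 genes were. The 48 (4.29% of 1119 genes) came without anti-CD24 replicate 1. As a share of all counts on genes, the difference between anti-CD24 and isotype became -0.0120 percentage points for all members (means 0.222% after isotype and 0.210% after anti-CD24), -0.0101 for ribosomal protein (means 0.0256% and 0.0155%) and -0.0338 for other pseudogenes (0.0645% and 0.0306%). With parents by sequence, the ribosomal protein difference was -0.384. The mitochondrial-like difference was inside the replicate SD and turned positive on all counts (0.0319), without isotype replicate 2 (0.235) and without anti-CD24 replicate 1 (0.242). Without isotype replicate 3 the other pseudogenes' difference went from -0.454 to -0.174, and without the Gapdh copies, chosen after seeing the data, it was -0.313. A minimum of 5 counts gave 264 members, of 20 counts 57, and a count in every sample 26. Leaving out a sample, chosen after seeing the data, gave 15 to 32 members whose conditions did not overlap, instead of 13, with 32 (26.9%, against 23.9% of all genes) without anti-CD24 replicate 1, 26 (21.8% against 27.4%) without isotype replicate 1 and 22 (18.5% against 28.7%) without isotype replicate 2. Over all genes it was 19.2% to 28.7%, against 15.9% with all samples, since fewer samples separate more easily.

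Among the named members, the log2 fold change of Gm10925 ran from -0.15 to 1.30 with a sample left out, that of Gm10222 from -0.76 to 0.54 (0.45 with rRNA genes removed) and that of Tpt1-ps3 from -1.54 to 0.17 (0.11 with rRNA genes removed, 0.075 without a filter). For Rps16-ps2 it was -0.29 with the replicate block, -0.40 in DESeq2 and from -0.89 to 0.77 with a sample left out. Across 1501 genes, deviations of same-numbered samples had correlations of -0.030, -0.024 and -0.11, with no sign of pairing by replicate number. Most counts are low, so this check cannot exclude pairing, and the paper describes paired t-tests for its comparisons of conditions. In the ratio of nuclear member counts to closest gene counts, same-numbered samples did lie close together. With isotype first, it was 2.76 and 2.67 in replicate 1, 3.07 and 3.02 in replicate 2, and 4.11 and 4.22 in replicate 3. The ratio of mitochondrial-like to mitochondrial protein-coding counts did not follow the replicate number, with 0.415 and 0.516 in replicate 2. With the replicate block, 0 members were called, the smallest adjusted p of a member in edgeR was 0.99, and the share difference of all members, -0.722 by construction as in the unpaired comparison, had an SD of 0.307 over the 3 pairs. The causes were not tested. The median of all genes moved from -0.29 to -0.97 in DESeq2 and to -0.07 with rRNA genes removed, which put 83.2% and 60.5% of the members below 0. How far depth limited the detection of members was not tested, since the simulations varied only the dispersion and the size of the change. Most nuclear members had under 30 counts over 6 samples. In simulations on genes more abundant than most of them, a 4-fold change was recovered in 16% at the dispersion of the data and in 87% at a dispersion of 0.1.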
